A study of Mus musculus with 18 samples.

Results

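The lateral septum (LS) of mice that had lost their litter was compared with the LS of mice that had never been pregnant. The comparison used the 6 pups removed arrays and the 6 virgin arrays of a series of 18, with 1 array per mouse. The members were chosen by the group label alone, and genes were read from the 21789 of 35557 targets (probesets) that the platform annotation assigns to exactly 1 gene, 19938 genes in all. All mice were outbred hsd:ICR females about 70 days old, and RNA came from micropunches of the LS on Affymetrix Mouse Gene 1.0 ST arrays. Pups removed females had mated and given birth, kept a litter standardized to 11 pups until postpartum Day 2, and were dissected on Day 7, which is 5 days after the litter was taken. Virgin females had been co-housed with other females and were dissected on the same day, and the third group of 6 was lactating maternal mice with their litter. Only diestrous virgins were used, and all pups removed females were diestrous. Of virgin and pups removed females, only the latter were housed with a breeder male and went through each later step. Housing with a male, pregnancy, birth, 2 days of nursing and the loss of the litter therefore cannot be told apart in this comparison.

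The LS is a forebrain region of mostly GABAergic neurons that takes input from the hippocampus and projects to the hypothalamus, and it is known for a part in maternal behavior, maternal aggression and the response to stress. Pregnancy and birth expose it to progesterone, estradiol, prolactin and oxytocin, and contact with pups maintains lactation and many features of maternal behavior. Immediate early genes such as Fos are transcribed within minutes of neuronal activity and decay within hours, while hemoglobin RNA in a brain sample comes largely from young red cells in its vessels.

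Values are the deposited log2 signals, so that a difference of 1 is a doubling, and differences are pups removed minus virgin from a limma fit of all 18 arrays. Called means an adjusted p under 0.25 over all probesets, the threshold of the study. At that threshold 74 of 35557 probesets were called (0.208%), 67 higher and 7 lower in pups removed mice. Of the 74, 55 were among the 12147 probesets with no gene name, and 54 of those 55 were higher. Of the probesets with exactly 1 gene, 14 of 21789 were called (0.0643%), 12 higher (0.0551%) and 2 lower (0.00918%), and they stood for 12 genes. None passed an adjusted p of 0.05, and none stayed past 0.25 when the p-values were adjusted over the one-gene probesets alone, where the lowest was 0.279. At an unadjusted p under 0.05 there were 1137 (5.22%), 708 higher (3.25%) and 429 lower (1.97%). With the same arrays as controls, maternal against virgin called 325 (1.49%), and pups removed against maternal called 6 (0.0275%). The 95% interval of a one-gene difference reached 0.11 to either side at the median, a width that goes with an unadjusted p of 0.05. A call needed a smaller p than that. The smallest called one-gene difference was 0.17, so small differences could be missed here. The split by direction depended on scaling. After quantile normalization 24 one-gene probesets were called, 7 higher and 17 lower, and after centring each array on its median 21 were called, 6 higher and 15 lower. Both scalings lowered the median of the one-gene probesets. Median centring moved each difference by the same amount, and quantile normalization by amounts that differed between sets of probesets. As deposited 52.5% of one-gene probesets were higher, and 37.0% after quantile normalization and 31.9% after median centring, with medians of -0.02 and -0.03 in the latter 2.

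The largest difference between the groups was in adult hemoglobin RNA, on 4 probesets that the annotation assigns to more than 1 globin gene and that therefore stand outside the one-gene rule. On the first alpha globin probeset (Hba-a2/Hba-a1) the virgin arrays ran from 11.34 over a median of 11.88 to 12.21, and the pups removed arrays from 8.77 over 9.48 to 10.05. Every pups removed array lay below every virgin array. It fell by 2.34 (95% interval -2.78 to -1.90, limma adjusted p = 3.49e-05), a level 5.06-fold lower. The second alpha probeset differed by -2.29 and the 2 beta globin probesets (Hbb-bt/Hbb-bs/Hbb-b2/Hbb-b1) by -2.34 and -2.27, all called, with adjusted p-values from 3.49e-05 to 5.57e-05. The genes of a pair or cluster share sequence and cannot be told apart on these probesets, and the 4 are not independent. All 4 were as low against maternal arrays, where the differences ran from -2.70 to -2.57 and the adjusted p from 3.79e-06 to 4.99e-06, while maternal and virgin arrays differed by 0.28 to 0.38 with no adjusted p under 0.565. Over 19 alternative settings the 4 differences stayed between -2.46 and -2.10.

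**Figure D1:**
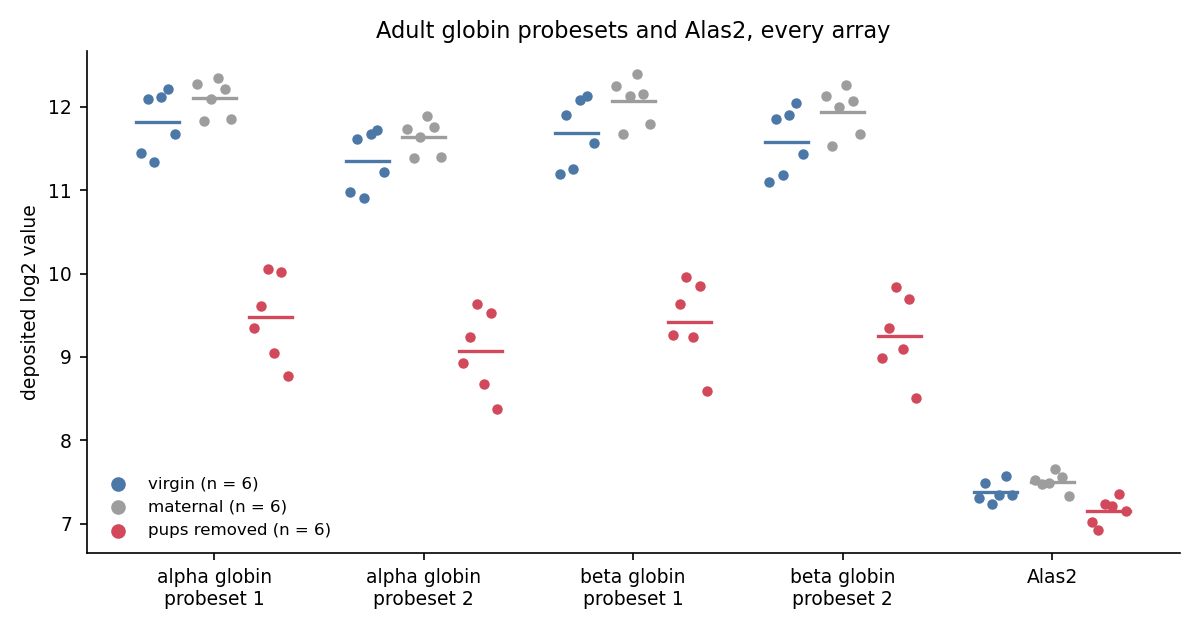
Deposited log2 values of the 4 adult globin probesets and of Alas2 on each of 18 arrays (dots), with the group mean (line), n = 6 per group. The 6 pups removed arrays sit below all virgin and maternal arrays on the globin probesets, from 8.38 to 10.05, while Alas2 overlaps between groups.

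Other red cell genes did not follow by that amount. Of 28 erythroid genes listed, 18 had a one-gene probeset, and of these 14 were lower, 4 higher and none was called, with a median difference of -0.04 against 0.005 over all one-gene probesets. At an unadjusted p under 0.05, 3 were lower and 1 higher, against 1.97% and 3.25% of one-gene probesets. The mean over the 18 ran from 7.01 to 7.15 on virgin arrays, below the virgin array medians of 7.61 to 7.68 and far below the globins. The 2 sets were therefore not compared at like signal levels. Alas2, which makes the first intermediate of heme in red cells, had virgin arrays from 7.23 over 7.34 to 7.57 and pups removed arrays from 6.92 over 7.18 to 7.36, and its difference of -0.23 missed the threshold (limma adjusted p = 0.387). Kel, a red cell surface protein, differed by -0.15 (limma adjusted p = 0.391). Cpox, a heme synthesis enzyme used in all cells, differed by 0.13 in the other direction (limma adjusted p = 0.409). Embryonic globins had differences of -0.04 for Hba-x, -0.01 for Hbb-bh1 and -0.17 for Hbb-y, none called. Neutrophil genes (5 of 11 higher) and lymphocyte genes (4 of 9 higher) had medians of -0.02 each with none called, although Mpo, an enzyme of neutrophil granules, was at -0.24 (limma adjusted p = 0.391). In these bulk samples fewer cells of a type and less RNA per cell cannot be told apart.

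Among the one-gene probesets the called differences were small, from 0.17 to 0.66 on the log2 scale. The higher ones were 1.124-fold to 1.304-fold above virgin. Of the 14, 7 had a mean signal under 7, below the array medians of 7.61 to 7.70. For 9 of the 14 no pups removed array overlapped a virgin array. Over all one-gene probesets this held for 35 of 21789 higher (0.161%) and 14 lower (0.0643%). The 14 were chosen by this same comparison, so their separation follows largely from the choice. The maternal mean lay between the virgin and pups removed means for all 14. The choice favours this too, since it took probesets on which those 2 groups lay far apart. The difference from maternal arrays was past the threshold for none of them (limma adjusted p from 0.31 to 0.771), and the maternal against virgin difference, which shares the virgin arrays, was past it for 2.

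Mir151, a microRNA gene, had virgin arrays from 6.48 over 6.74 to 6.93 and pups removed arrays from 6.94 over 7.14 to 7.17. The groups did not overlap, by the width of 1 step in the second decimal. It rose by 0.38 (95% interval 0.24 to 0.53, limma adjusted p = 0.0657), and it was 0.27 higher in maternal than in virgin arrays (adjusted p = 0.185). Cks2, a small subunit that binds cyclin-dependent kinases, had 3 probesets, all higher, and 2 were called. On the first, the virgin arrays ran from 6.91 over 7.17 to 7.32 and the pups removed arrays from 7.34 over 7.51 to 7.60, a rise of 0.33 (limma adjusted p = 0.126). On the second, which was brighter, the rise was 0.24 (limma adjusted p = 0.205).

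Camta1, a calmodulin-binding transcription factor of neurons, was the brightest of the called genes. Its virgin arrays ran from 11.26 over 11.34 to 11.41 and its pups removed arrays from 11.49 over 11.54 to 11.58, with no overlap and a rise of 0.20 (limma adjusted p = 0.126). All 4 Camta1 probesets were higher, 3 of them at an unadjusted p under 0.05, and maternal arrays were 0.15 above virgin ones (adjusted p = 0.179). Abcg2, an efflux transporter of the blood-brain barrier, had virgin arrays from 7.05 over 7.16 to 7.26 and pups removed arrays from 7.28 over 7.37 to 7.46. The groups did not overlap, and it rose by 0.21 (95% interval 0.12 to 0.30, limma adjusted p = 0.126), with maternal arrays only 0.06 above virgin ones.

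Ppp1r12b, a targeting subunit of myosin phosphatase, rose by 0.17 on 1 of 7 probesets (limma adjusted p = 0.168), with virgin arrays up to 8.69 and pups removed arrays from 8.70. The median over its 7 probesets was 0.01, and 5 of them were higher. Heatr5b, a HEAT repeat protein, rose by 0.24 on 1 of 2 probesets (limma adjusted p = 0.207), and the other was at -0.01. Fancm, a DNA translocase of the Fanconi anemia pathway, rose by 0.20 (limma adjusted p = 0.248), just inside the threshold. Platr25 rose by 0.36 (limma adjusted p = 0.126) and Gm31219 by 0.19 (limma adjusted p = 0.176), both as symbols with no product named here.

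The 2 called genes that were lower encode chemosensory receptors on dim probesets. Vmn1r58, a vomeronasal receptor, had virgin arrays from 4.02 over 4.56 to 4.75 and pups removed arrays from 3.63 over 3.79 to 4.14. The groups overlapped on 1 virgin array, and it fell by 0.66 (limma adjusted p = 0.126). Olfr985, an olfactory receptor, fell by 0.22 (limma adjusted p = 0.205), with virgin arrays from 5.63 and pups removed arrays up to 5.58. Over all 1210 olfactory and vomeronasal receptor probesets, 525 were higher and 677 lower with a median of -0.01. Just outside the threshold stood Htr3b, a subunit of the 5-HT3 serotonin receptor, at -0.27, and Mmp25, a membrane-bound metalloproteinase, at -0.20, both with a limma adjusted p of 0.252. Grk4, a kinase of G protein-coupled receptors, at 0.27 and Hdac8, a histone deacetylase, at 0.18 had the same adjusted p of 0.252.

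The calls were not equally stable. Of 19 alternatives, Mir151 and the better Hmcn1 probeset were called under 18, Platr25 under 17 and Vmn1r58 under 16. Of 20, the better Cks2 probeset was called under 18, Camta1 under 17 and Abcg2 under 13. Fancm was called under 5 of 20 and Heatr5b under 6 of 20, and Gm31219 was called under 7 of 19. The second Hmcn1 probeset was called under 11 of 19, the second Cks2 probeset under 7 of 20, Ppp1r12b under 11 of 20 and Olfr985 under 9 of 19. None of the 14 changed direction.

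**Figure D2:**
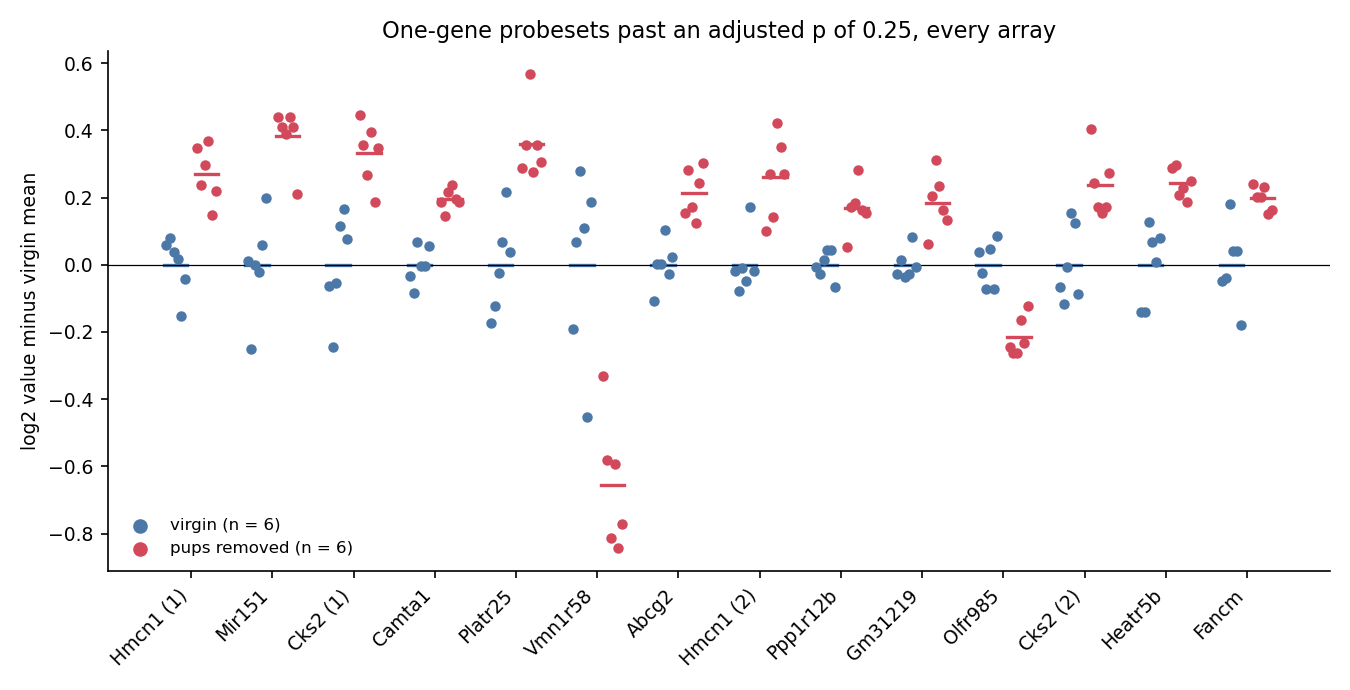
Log2 value of each of 6 virgin and 6 pups removed arrays (dots) minus the virgin mean, with group means (lines), for the 14 one-gene probesets with an adjusted p under 0.25, numbered where a gene has 2. In 9 of the 14 the 2 groups do not overlap, and the widest differences are those of Vmn1r58 at -0.66 and Mir151 at 0.38.

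Hmcn1 encodes hemicentin 1, a very large protein of the extracellular matrix with many immunoglobulin domains, and it was read by 77 probesets, most of any called gene. On its best probeset the virgin arrays ran from 6.13 over 6.31 to 6.36 and the pups removed arrays from 6.43 over 6.55 to 6.65, with no overlap and a rise of 0.27 (95% interval 0.17 to 0.37, limma adjusted p = 0.0657). A second probeset rose by 0.26 (limma adjusted p = 0.168), with 1 virgin array at 6.50 inside the pups removed range. Of all 77, 70 were higher and 7 lower, and 25 were higher at an unadjusted p under 0.05 with none lower, against 3.25% and 1.97% of one-gene probesets. Their median difference was 0.08, and that of maternal minus virgin arrays was 0.01. The mean over the 77 probesets ran from 6.56 to 6.68 on virgin arrays, from 6.62 to 6.67 on maternal arrays and from 6.68 to 6.76 on pups removed arrays. The 77 probesets lie on 1 gene and are not replicates, and most are dim. After quantile normalization 56 were higher and 21 lower, and after median centring 52 were higher and 22 lower, with 2 called under both. At an unadjusted p under 0.05, 21 were higher and 3 lower after the first scaling, and 19 higher and 3 lower after the second.

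Genes of the vessel wall leaned upward. Of 14 endothelial genes measured, 13 were higher, none was lower and 1, Abcg2, was called. At an unadjusted p under 0.05, 4 were higher, and the median difference was 0.09. Over all one-gene probesets 52.5% were higher, 3.25% were higher at that p and 0.0643% were called. Slco1a4, an anion transporter of brain endothelium, had virgin arrays from 9.06 over 9.08 to 9.19 and pups removed arrays from 9.11 over 9.34 to 9.39, a difference of 0.19 (limma adjusted p = 0.436). The VEGF receptor gene Flt1 differed by 0.10 (limma adjusted p = 0.572), and Slc2a1, the glucose transporter of the barrier, by 0.00. The mean of the list ran from 8.41 to 8.57 on virgin arrays and from 8.54 to 8.60 on pups removed arrays, so that the groups overlapped. Median centring lowered the list's median to 0.06 and quantile normalization to 0.07, with 12 of 14 higher and none called under both. Mural cell genes (8 of 10 higher, median 0.05) and meningeal fibroblast genes (10 of 11 higher, median 0.08) had no member called. Maternal minus virgin medians on the same virgin arrays were 0.02 for endothelial, -0.03 for mural and 0.04 for meningeal genes.

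Immediate early genes leaned downward. Of 21 measured, 19 were lower and 2 higher, 7 lower and 1 higher at an unadjusted p under 0.05, and none was called. Over all one-gene probesets 52.5% were higher, and 1.97% were lower and 3.25% higher at that p. The median difference was -0.11, against 0.005 over all one-gene probesets and 0.04 for the same genes in maternal minus virgin arrays. Fos, a subunit of the AP-1 transcription factor, had virgin arrays from 7.08 over 7.44 to 8.21 and pups removed arrays from 6.94 over 7.03 to 7.39. The ranges overlapped, since the virgin arrays were spread widely, and the difference of -0.46 (95% interval -0.82 to -0.09) had a limma adjusted p of 0.49. Maternal arrays were 0.23 above virgin ones, and pups removed minus maternal was -0.69 (limma adjusted p = 0.287).

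Btg2, an antiproliferative gene induced by activity, ran from 8.24 over 8.39 to 8.75 on virgin arrays and from 8.04 over 8.16 to 8.35 on pups removed arrays, a difference of -0.27 (limma adjusted p = 0.454). Junb, another AP-1 subunit, ran from 8.08 over 8.15 to 8.38 and from 7.89 over 8.01 to 8.11, a difference of -0.18 (limma adjusted p = 0.472). Every pups removed array lay below the virgin mean for Fos, Btg2 and Junb. The remaining names were chosen after their values were seen. Npas4, an activity-induced transcription factor, was at -0.42 (limma adjusted p = 0.539), Arc, which acts at synapses, at -0.20 (limma adjusted p = 0.545) and Egr4 at -0.11 (limma adjusted p = 0.592). The 2 that were higher were Nr4a2, an orphan nuclear receptor, at 0.21 (limma adjusted p = 0.561) and Fosl2, another AP-1 subunit, at 0.03 (limma adjusted p = 0.94). Mean levels over the list ran from 8.29 to 8.70 on virgin arrays and from 8.28 to 8.45 on pups removed arrays. Without virgin replicate 5, the highest array, 3 genes were lower at an unadjusted p under 0.05 instead of 7, the median was -0.07, and 19 of 21 were still lower.

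Since the list leaned one way, the 250 bases before the transcription start were read from RefSeq for its genes, of which 16 of 21 had entries, in 27 windows. The cyclic AMP response element TGACGTCA, the same on both strands, was in 2 of the 27 windows, those of Btg2 and Dusp1, and in 1.55% of 32851 windows of this length. The shorter core TGACG, or CGTCA on the other strand, which the full element includes, was in 16 of the 27 and in 17.8% of all. The windows of Fos, with the largest difference of the list, and Btg2, with the lowest p, are shown with the core in capitals. The Fos window is GRCm38.p6 chr12:85473640-85473889, plus strand, and that of Btg2 is chr1:134079156-134079405, minus strand. A match is a match of letters, with no binding measured here.
Fos: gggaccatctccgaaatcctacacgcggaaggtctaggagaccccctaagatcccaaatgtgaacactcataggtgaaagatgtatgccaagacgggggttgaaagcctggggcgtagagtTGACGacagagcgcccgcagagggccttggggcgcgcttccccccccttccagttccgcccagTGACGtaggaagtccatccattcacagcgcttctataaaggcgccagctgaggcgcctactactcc
Btg2: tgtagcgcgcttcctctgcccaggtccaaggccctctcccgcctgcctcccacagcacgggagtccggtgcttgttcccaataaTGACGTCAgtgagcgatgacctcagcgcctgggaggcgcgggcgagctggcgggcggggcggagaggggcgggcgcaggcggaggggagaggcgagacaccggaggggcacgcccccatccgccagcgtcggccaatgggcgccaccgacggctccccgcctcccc

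**Figure D3:**
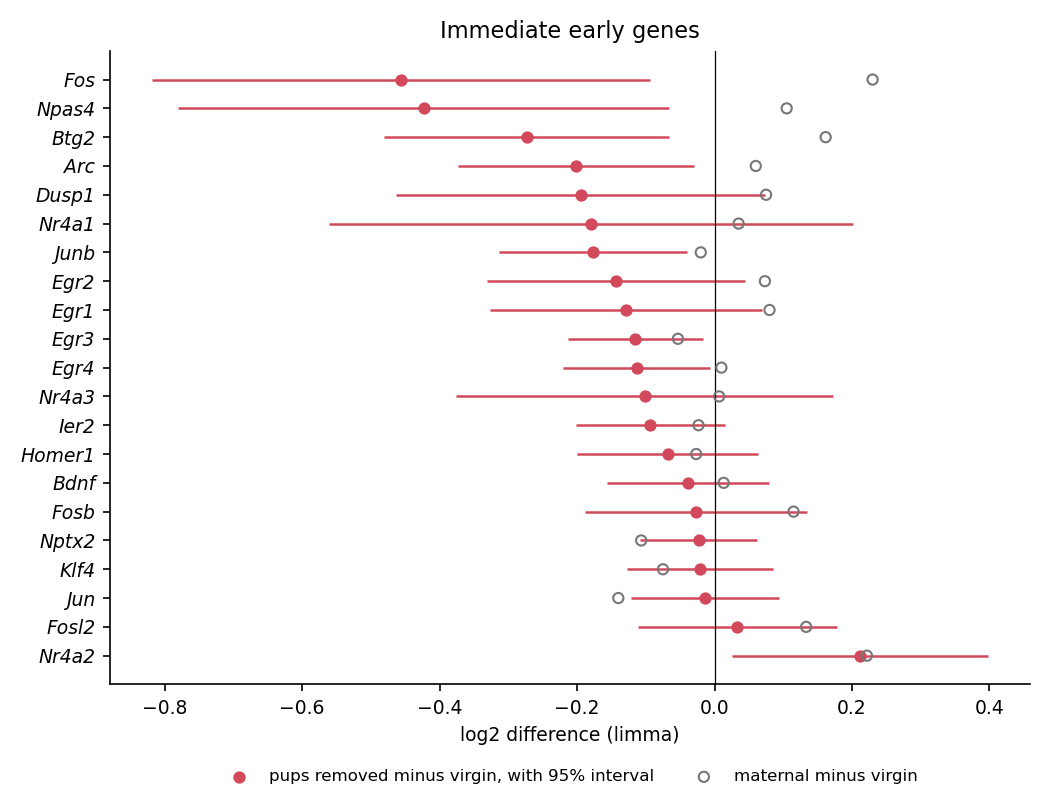
Log2 difference of each of 21 immediate early genes, pups removed minus virgin with its 95% interval from limma (filled dots and lines) and maternal minus virgin (open circles), 6 arrays per group. Of the 21 filled dots 19 lie below 0, from -0.46 for Fos, and Nr4a2 is highest at 0.21; the 2 comparisons share the virgin arrays.

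MicroRNA genes were examined after Mir151 led the called genes, so the group was chosen with its values seen. Of 298 microRNA gene probesets, 207 were higher and 89 lower, 43 higher and 7 lower at an unadjusted p under 0.05, and 1 was called. Over all one-gene probesets 52.5% were higher, and 3.25% were higher and 1.97% lower at that p. The median difference was 0.05, and it was 0.06 in maternal minus virgin arrays, which share the virgin arrays. After quantile normalization 159 were higher and 139 lower with a median of 0.01, and 33 were higher and 21 lower at an unadjusted p under 0.05. After median centring 167 were higher and 129 lower with a median of 0.02, and 35 were higher and 18 lower at that p. Over all one-gene probesets 359 were higher and 1384 lower at that p after the first scaling, and 270 and 1405 after the second. The medians over all one-gene probesets were -0.02 and -0.03 under these scalings and 0.005 as deposited. The microRNA median lay above that of all genes in each, least so after quantile normalization. The microRNA probesets are dim, with a mean from 6.47 to 6.65 on virgin arrays, where array medians were 7.61 to 7.68. A block of 6618 unnamed probesets leaned the same way, with 4586 higher, 2007 lower and 46 called, all higher. Over all 35557 probesets 74 were called (0.208%), so most calls came from this block, and over one-gene probesets 0.0643% were called. The array's labelling reads whole transcripts, and the microRNA gene probesets do not tell a mature microRNA from its precursor or from a host transcript.

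Neighbouring microRNA genes formed 16 clusters with at least 3 measured members, and 13 had a median above 0 and 3 below it. The Mir17 to Mir19b-1 cluster (2 of 5 higher, median -0.01), the Mir363 to Mir106a cluster (2 of 5 higher, median -0.06) and the Mir23a to Mir24-2 cluster (1 of 3 higher, median -0.02) were the 3 below. More than 1 member was higher at an unadjusted p under 0.05 in 2 clusters, which are described here and were picked for it. On chromosome 12 of GRCm38.p6, 30 measured microRNA genes from Mir379 to Mir369 lie within chr12:109709060-109743496, in the imprinted Dlk1-Dio3 region. Of the 30, 26 were higher and 4 lower, 9 higher and 1 lower at an unadjusted p under 0.05, with a median of 0.15. The mean over the cluster ran from 7.64 to 8.25 on virgin arrays and from 8.03 to 8.28 on pups removed arrays. The lowest array by far was virgin replicate 2, and without it 22 were higher and 8 lower with a median of 0.04. Maternal minus virgin arrays had a median of 0.10 over the same genes. On chromosome 16, Mir99a, Mirlet7c-1 and Mir125b-2, which lie within chr16:77598936-77646339, were at 0.20, 0.27 and 0.24.

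**Figure D4:**
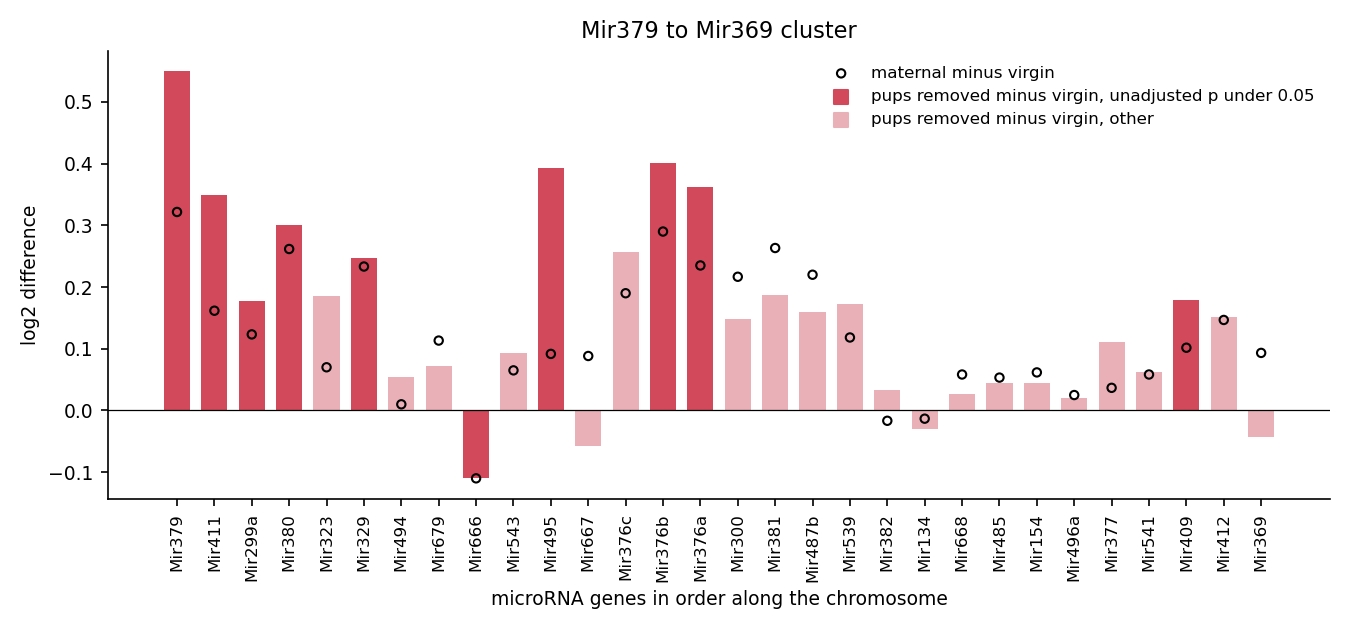
Log2 difference of 30 microRNA genes from Mir379 to Mir369 in their order along the chromosome, pups removed minus virgin (bars, darker at an unadjusted p under 0.05) and maternal minus virgin (open circles), 6 arrays per group. Of the 30 bars 26 are above 0, the tallest that of Mir379 at 0.55.

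Mature sequences are given from RefSeq (GRCm38.p6), where 273 of the 298 probesets matched an entry and Mir151, with the lowest p, did not. Shown are the 3 genes with the next lowest p and 3 members of each of the 2 clusters. The bases in capitals are the seed, bases 2 to 8, which pairs with target RNAs. The first 3 lie in other places, the next 3 in the chromosome 12 cluster and the last 2 in the chromosome 16 cluster. No seed is shared between them except that Mir125b-1 on chromosome 9 and Mir125b-2 on chromosome 16 encode the same mature sequence, shown once. On the plus strand, miR-181a-5p lies at chr2:38852741-38852763, miR-26a-5p at chr9:119031811-119031832, and miR-125b-5p at chr9:41581940-41581961 and chr16:77646279-77646300. The others, also on the plus strand, lie at chr12:109709065-109709085 for miR-379-5p, chr12:109723508-109723528 for miR-376b-3p, chr12:109718795-109718816 for miR-495-3p, chr16:77598940-77598961 for miR-99a-5p and chr16:77599672-77599693 for let-7c-5p.
miR-181a-5p (Mir181a-2): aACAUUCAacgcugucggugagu
miR-26a-5p (Mir26a-1): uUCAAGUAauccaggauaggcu
miR-125b-5p (Mir125b-1 and Mir125b-2): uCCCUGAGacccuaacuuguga
miR-379-5p (Mir379): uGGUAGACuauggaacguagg
miR-376b-3p (Mir376b): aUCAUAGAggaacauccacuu
miR-495-3p (Mir495): aAACAAACauggugcacuucuu
miR-99a-5p (Mir99a): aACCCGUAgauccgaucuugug
let-7c-5p (Mirlet7c-1): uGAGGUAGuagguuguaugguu

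Mir181a-2 ran from 6.65 over 6.66 to 6.81 on virgin arrays and from 6.80 over 6.86 to 6.93 on pups removed arrays, a difference of 0.16 that just missed the threshold (limma adjusted p = 0.252). Mir26a-1 ran from 6.51 over 6.76 to 7.11 and from 7.03 over 7.14 to 7.33, a difference of 0.34 (limma adjusted p = 0.302). Maternal arrays were 0.15 above virgin ones for Mir181a-2 and 0.25 above them for Mir26a-1. Mir125b-1 ran from 5.58 over 5.70 to 5.79 and from 5.79 over 5.85 to 6.01, a difference of 0.19 (limma adjusted p = 0.344), and its maternal minus virgin difference was 0.00. Mir379 had the widest spread, with virgin arrays from 5.49 over 6.58 to 6.84 and pups removed arrays from 6.82 over 6.92 to 7.34, a difference of 0.55 (limma adjusted p = 0.406). Mir376b was at 0.40 (limma adjusted p = 0.385) and Mir495 at 0.39 (limma adjusted p = 0.387).

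In pups removed mice, genes that the study discusses for the maternal state had a median near the virgin level, with single genes further off. They were picked on these arrays, so the closeness of the median is a description. Of 21, 18 had a one-gene probeset, none was called against virgin, and the median difference was -0.03, with -0.14 for maternal minus virgin on the same virgin arrays. Fabp7, a fatty acid binding protein of astrocytes and neural progenitors, was at 12.08 to 12.72 with a median of 12.27 on virgin arrays and at 12.23 to 12.53 with a median of 12.36 on pups removed arrays. The difference was 0.04 (95% interval -0.18 to 0.26), while maternal minus virgin was -0.48 (limma adjusted p = 0.124). Pups removed minus maternal, the test of the step from one to the other, was 0.51 (limma adjusted p = 0.265). The paper's own fit counted Fabp7 as past its threshold in that comparison, and its qPCR also found a difference.

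Socs2, a feedback inhibitor of growth hormone and prolactin signalling, was at 8.98 to 9.49 with a median of 9.26 on virgin arrays and at 9.05 to 9.45 with a median of 9.24 on pups removed arrays. The difference was -0.03 (95% interval -0.19 to 0.14), beside 0.34 for maternal minus virgin (limma adjusted p = 0.139). Pups removed minus maternal was -0.36 (limma adjusted p = 0.275). The paper's own fit and its qPCR both counted Socs2 as different between maternal and pups removed mice. Among GABA-A receptor subunits, 6 of 16 were higher and 10 lower with a median of -0.01 and none called. Gabrd, the delta subunit of extrasynaptic receptors, was at -0.16 (95% interval -0.37 to 0.05). Its lowest pups removed array was at 8.10 and its lowest virgin array at 8.63. Gabra4 was at -0.11 (95% interval -0.24 to 0.02). The paper's qPCR found Gabrd and Gabra4 lower in maternal LS than in either other group. The intervals given here do not show how far each had returned to the virgin level. Gabre, the epsilon subunit, was at 0.09 (95% interval -0.22 to 0.40), and its pups removed arrays ran from 7.74 to 8.90 around virgin arrays from 7.89 to 8.32. Trpc4, a cation channel enriched in LS neurons, was at -0.01 (95% interval -0.14 to 0.13), and Drd2, a dopamine receptor, at -0.06 (95% interval -0.25 to 0.13).

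Genes listed for lateral septal neurons were bright on average, but no other region was measured, so their level does not identify the tissue. Of 14 lateral septal genes, all were measured, with a mean level from 10.65 to 10.73 on virgin arrays and from 10.57 to 10.81 on pups removed arrays, and 12 were lower, 2 higher and none called, with a median of -0.03. Sst and Gad1, markers of GABAergic neurons, differed by -0.08 and -0.05, and Crhr2, a receptor for corticotropin-releasing family peptides, by -0.06. Genes of the neighbouring striatum had larger differences. Of 26 markers of medium spiny neurons 25 were lower with a median of -0.11 and none called, beside -0.34 for maternal minus virgin on the same virgin arrays. The mean of that list ran from 9.95 to 10.13 on virgin arrays and from 9.52 to 10.24 on pups removed arrays, and without pups removed replicate 4 the median was -0.03. Ptpn5, a striatum-enriched phosphatase, had the lowest p, with a difference of -0.12 (limma adjusted p = 0.387). The part of the micropunch position in the results above was not tested.

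Choroid plexus RNA varied widely between arrays within each group. Of 10 genes, 8 were lower, 1 was higher and none was called, with a median of -0.05, beside -0.51 for maternal minus virgin and 0.50 for pups removed minus maternal. The mean of the list ran from 7.77 to 9.75 on virgin arrays, from 7.81 to 9.27 on maternal arrays and from 7.67 to 9.69 on pups removed arrays. Ttr, its most abundant transcript, was at 9.22 on 1 virgin array and from 12.87 to 13.83 on the other 5, and its pups removed arrays ran from 8.34 to 13.76, so that its difference of -0.82 had an interval from -3.28 to 1.64. Ependymal genes had a median of 0.02, astrocyte genes -0.01, oligodendrocyte genes -0.03, precursor genes 0.02, microglial genes -0.01 and glutamatergic genes 0.03, with no member called in any of the 6 lists. Neural stem cell genes (5 of 11 higher) and neuroblast genes (3 of 13 higher) had medians of -0.02 and -0.04. Nes, an intermediate filament of neural progenitors, was at -0.14 (limma adjusted p = 0.412).

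**Figure D5:**
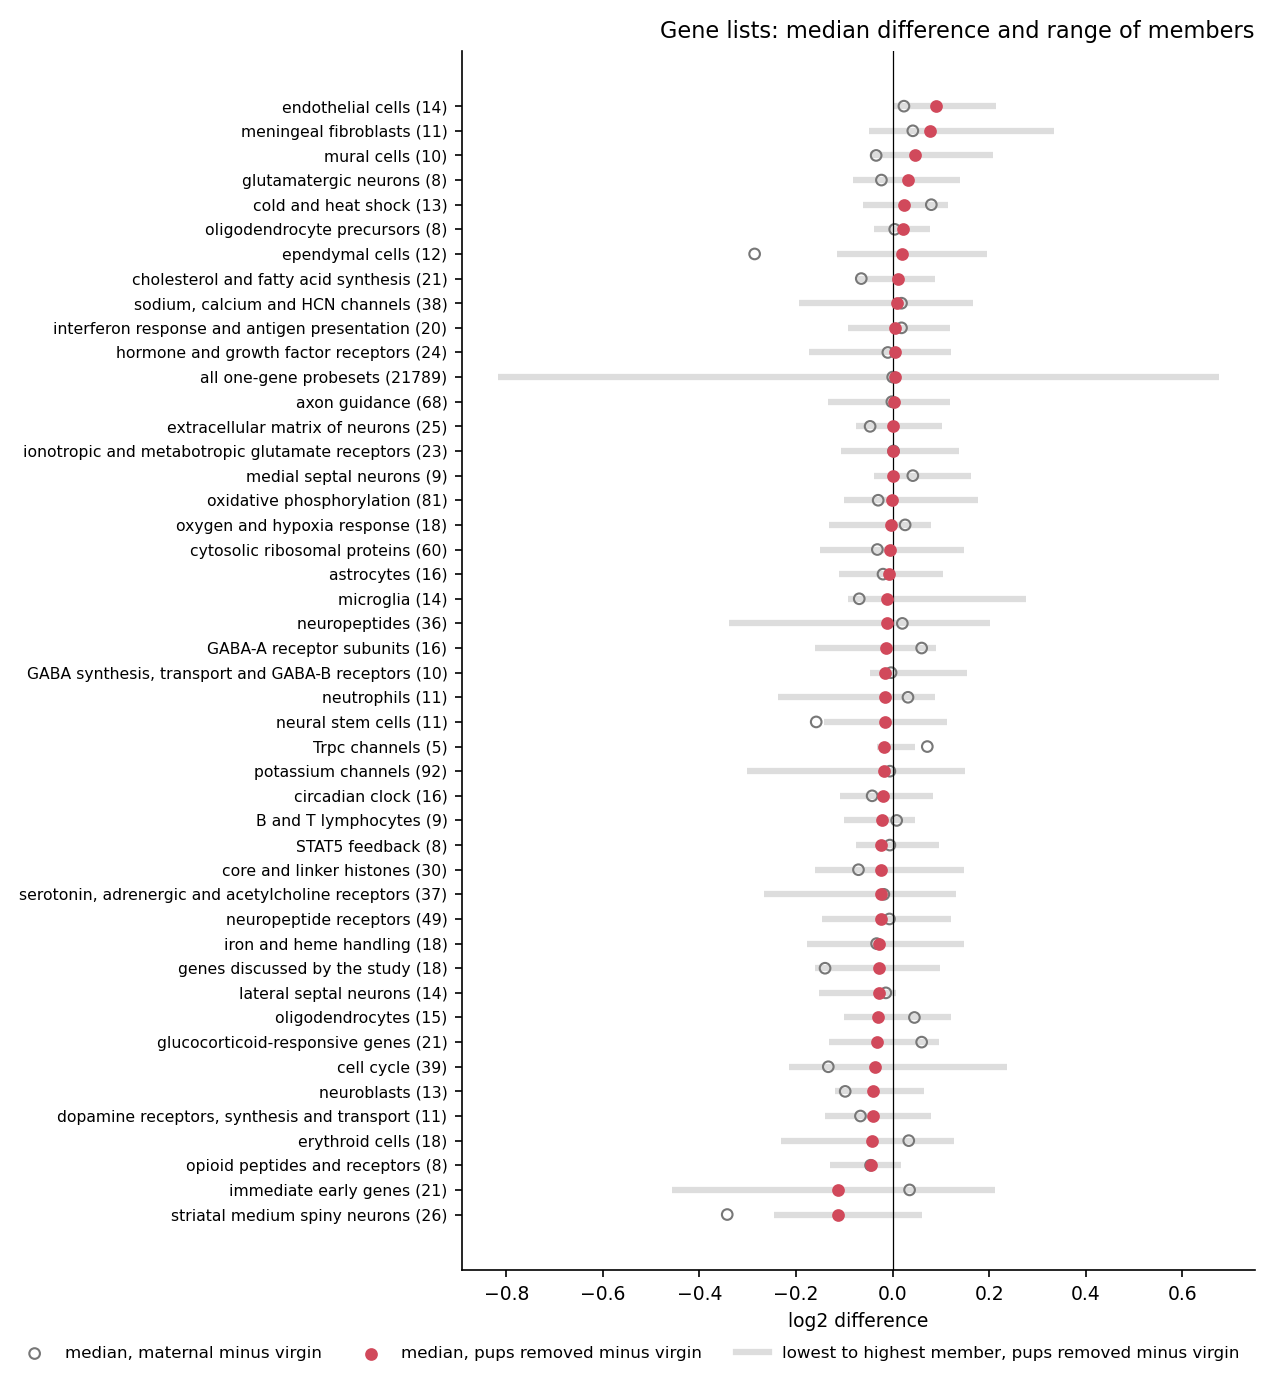
Median log2 difference of each of 45 gene lists and of all one-gene probesets, pups removed minus virgin (filled dots) and maternal minus virgin (open circles), with the lowest and highest member (grey bars) and the number measured in parentheses; the choroid plexus list is left out for its wide range. Endothelial genes have the highest median at 0.09, immediate early and medium spiny neuron genes the lowest at -0.11, and the 2 comparisons share the virgin arrays.

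Cell cycle genes were mostly a little lower, 31 of 39, with 8 higher, a median of -0.04 and Cks2 the only member called, in the other direction from most of its list. Mcm6, part of the replicative helicase, was at -0.22, and Ect2, which acts in cytokinesis, at -0.17, both with a limma adjusted p of 0.387. Their maternal minus virgin differences were -0.21 and -0.28. Core and linker histone genes had a median of -0.02, with 11 of 30 higher. Of 92 potassium channel genes 37 were higher and 55 lower, with a median of -0.02, and of 38 sodium, calcium and HCN channel genes 21 were higher and 16 lower, with a median of 0.01 and none called in either. Scn1a, a sodium channel of fast-spiking neurons, had a difference of 0.17 (limma adjusted p = 0.387).

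Transmitter and peptide genes had small differences and no calls. Of 37 serotonin, adrenergic and acetylcholine receptor genes 10 were higher and 26 lower, with Htr3b lowest and Htr2c at 0.13 (limma adjusted p = 0.545). Glutamate receptor genes were even, with 12 of 23 higher and a median of 0.00. Of 36 neuropeptides 14 were higher, with a median of -0.01, and Nms, neuromedin S, was at -0.34 (limma adjusted p = 0.59). Of 49 neuropeptide receptors 20 were higher, with a median of -0.03. Vipr2, a receptor for vasoactive intestinal peptide, was at -0.15 (limma adjusted p = 0.412), and Tacr1, the substance P receptor, at -0.14 (limma adjusted p = 0.574). Hormone and growth factor receptors were even, with 13 of 24 higher and Esr2, estrogen receptor beta, at -0.12 (limma adjusted p = 0.491). STAT5 feedback genes, 3 of 8 higher, had a median of -0.02.

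Genes that respond to glucocorticoids leaned downward, 16 of 21 with a median of -0.03, and none was called. Fam107a, a stress-responsive actin-binding protein, ran from 11.30 over 11.41 to 11.52 on virgin arrays and from 11.23 over 11.30 to 11.35 on pups removed arrays, a difference of -0.11 (limma adjusted p = 0.421). Maternal arrays, from 11.56 to 11.70, lay above every array of both other groups. Against maternal arrays the pups removed level fell by 0.33 (limma adjusted p = 0.000923), and maternal minus virgin was 0.22 (limma adjusted p = 0.111). Clock genes (5 of 16 higher, median -0.02), ribosomal protein genes (24 of 60 higher, median -0.01), oxidative phosphorylation genes (40 of 81 higher, median 0.00) and cholesterol and fatty acid synthesis genes (15 of 21 higher, median 0.01) had no call.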

How the data were processed

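Total RNA from LS micropunches was hybridised to Affymetrix Mouse Gene 1.0 ST arrays, 6 each of virgin, maternal and pups removed mice. The log2 values were deposited by the authors, made with Affymetrix Power Tools 1.12.0 by PLIER and GC bin background correction, and have 2 decimals. A method of normalization between arrays and a genome build are not given in the sources used here. Arrays have no read depth, and the number of arrays limits the precision.

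The 3 groups (18 arrays) entered 1 linear model in limma (version 3.58.1, R 4.3.3) with moderated variances. P-values were adjusted by Benjamini-Hochberg over 35557 probesets, and the fit was tested on simulated data. Intervals are 95% intervals of the limma difference. Symbols are those of the platform annotation, where 1621 probesets name several genes and 12147 none, and a gene in a list is its brightest one-gene probeset. Each of 46 lists is described by counts and a median, with no test. Named are the 15 higher and 15 lower one-gene probesets with the smallest p, up to 3 genes of a list by p, the genes the study discusses and the globins, and others where the text says so. The members, lists and rules were chosen with earlier results of these data known. RNA was extracted in triplets of 1 sample per group, but array numbers did not mark them: deviations of same-numbered arrays correlated by -0.08 to 0.08. The alternatives were 12 arrays, a replicate block, 2 scalings, a filter on dim probesets, the set adjusted over, the variance prior, array weights, each array left out and a threshold of 0.05. No scan date was used.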

Additional observations from a re-analysis of the deposited data

Results flagged for a closer look

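In a group of 6 arrays, the highest or lowest array was set against the others by Dixon's criterion, which chance exceeds in about 1 in 20 groups. Of 132 groups tested over the named probesets, 9 held such an array. For Mir151 the lowest pups removed array, replicate 6, was at 6.94 and the next at 7.12. For Platr25 the highest pups removed array, replicate 3, was at 7.13 and the next at 6.92. For the second Hmcn1 probeset the highest virgin array, replicate 5, was at 6.50 and the next at 6.32. For Gad1 the highest pups removed array, replicate 3, was at 12.36 and the next at 12.24. For Ttr the lowest virgin array, replicate 6, was at 9.22 and the next at 12.87. For Arc the highest virgin array, replicate 5, was at 10.17 with the next at 9.88, and the lowest pups removed array, replicate 4, was at 9.51 with the next at 9.70. Virgin replicate 2 was lowest for Mir379, at 5.49 with the next at 6.57, and for Mir125b-2, at 4.32 with the next at 4.58.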

How the results depend on the processing

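The 4 globin probesets were called under all alternatives. The count of probesets called, 74, was 33 with the 12 arrays of the 2 groups alone, 42 with array weights and 7 at an adjusted p under 0.05, and it ran from 18 (without virgin replicate 2) to 266 (without virgin replicate 4) when single arrays were left out. It was 249 without virgin replicate 6, 113 without virgin replicate 3, 46 without virgin replicate 1 and 49 without pups removed replicate 4. The count of one-gene probesets, 14, was 7 with 12 arrays, 24 after quantile normalization, 21 after median centring, 6 with array weights, and 0 at an adjusted p under 0.05 or when adjusted over one-gene probesets alone, where 1137 had an unadjusted limma p under 0.05. It ran from 3 (without virgin replicate 2) to 61 (without virgin replicate 4), with 43, 22 and 7 without virgin replicates 6, 3 and 1 and 8 without pups removed replicate 2. Of all called probesets, 90.5% were higher, and 59.6% after quantile normalization and 59.8% after median centring, which moved the median of all probesets to -0.01 and -0.02. With a replicate block, 70 probesets and 10 one-gene probesets were called, 8 of the latter shared with the main result; the array numbers do not pair the arrays. Differences near 0 turned sign without single arrays: Drd2 ran from -0.0977 to 0.0163 (without pups removed replicate 4), Gabre from -0.0497 (without pups removed replicate 4) to 0.1823, and Fabp7 from -0.0107 (without virgin replicate 1) to 0.1173. Socs2 ran from -0.0803 to 0.0217, above 0 without virgin replicate 4 or pups removed replicate 5 and at 0.0039 with array weights. Trpc4 ran from -0.056 to 0.036, above 0 without virgin replicates 1, 3 or 4 or pups removed replicates 5 or 6. The cause was not tested. Among 1025 list medians under alternatives, 1021 moved by less than the spread between arrays. That spread is wide beside most medians, so a median near 0 can change sign within it. The choroid plexus median ran from -0.16 to 0.17 and the oligodendrocyte median from -0.06 to 0.04. With 6 arrays a group, the 95% interval of a one-gene difference reached 0.11 to either side at the median. The smallest called one-gene difference was 0.17, so differences somewhat above 0.11 could be missed as well.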
